A study of Homo sapiens with 47 samples.

Results

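Human mitochondrial DNA carries 37 genes in the GENCODE annotation of GRCh38, and the genes described here are the 13 of them that had a row in a table of 57507 genes. They were chosen as every row whose symbol begins with MT-, a rule that uses no measured value. All 13 were protein-coding mRNAs, and the 2 ribosomal and 22 transfer RNA genes of the organelle were not analysed here.

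Mitochondrial DNA is transcribed inside the organelle by a dedicated polymerase, from a promoter on each strand, into long precursors that are cut mostly at transfer RNAs lying between the genes. Each mature mRNA encodes a membrane subunit of the oxidative phosphorylation machinery, the chain that oxidises NADH, pumps protons and makes ATP. All the other subunits, and the proteins that transcribe, process and translate these mRNAs, come from nuclear genes whose products are imported from the cytosol, and because every cell holds many copies of the organelle genome its mRNAs rank among the most abundant of human cells.

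The 47 libraries were made from total RNA of 2 established cell lines, the near-haploid line HAP1, which derives from a chronic myeloid leukemia, and the colorectal carcinoma line HCT116. The study asked how cells adapt to hypomorphic alleles of NUP58, an essential nucleoporin of the central channel of the nuclear pore, obtained with CRISPR-Cas9 and a pair of guide RNAs. In HAP1 there were 4 libraries each of wild-type cells (WT), of EV (cells transfected with Cas9 and no guide) and of the 6 NUP58-mutated lines C1 to C6, each grown from a single cell. In HCT116 there were 4 libraries labelled Clone, from 1 NUP58-mutated line, and 11 of unedited cells, of which 2 were labelled WT, 3 EV1 and 4 EV2 (EV1 and EV2 being Cas9 controls without a guide), while for the remaining 2, both numbered 4, the title and the genotype disagreed on whether they were WT or EV1. No treatment was given, and the study states that the mutated clones were sequenced at passage P1, the first harvest once gene editing and seeding of single cells had been followed by enough growth. The study describes the HAP1 libraries as independent experimental replicates and those of HCT116 as technical in one place and biological in another, so the p-values below measure the spread between these libraries. Since RNA came from whole cultures, fewer cells of a kind and less RNA per cell cannot be told apart.

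NUP58 was lower in every edited HAP1 library (7.98 to 28.0 FPKM, fragments scaled to gene length and to the size of the library) than in any unedited one (34.3 to 50.4 FPKM). In HCT116 the library labelled Clone replicate 3 had 44.7 FPKM of NUP58, beside 23.3 to 25.3 FPKM in the other 3 labelled Clone, and the library labelled EV2 replicate 3 had 23.9 FPKM, beside 28.7 to 50.3 FPKM in the other 10 unedited ones. Both therefore went against their labels, and the comparisons that use HCT116 were also run without the libraries numbered 3. Of 10 epithelial markers 8 had a mean of at least 1 FPKM in HCT116 and 5 did in HAP1. The highest of the 5 was KRT18, with a mean of 27.3 FPKM in HAP1 and 484 FPKM in HCT116. Of 10 haematopoietic markers only TAL1 reached 1 FPKM in HAP1, with PTPRC, SPI1 and GATA1 among the 9 under 0.1 FPKM. In HCT116 only HBG2 (2.46 FPKM) reached it. The read depth behind the FPKM is unknown, and the smallest values put the libraries between 0.747 and 1.15 times the depth of WT replicate 1.

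The 13 genes fell into 4 respiratory complexes. MT-ND1, MT-ND2, MT-ND3, MT-ND4L, MT-ND4, MT-ND5 and MT-ND6 encode 7 membrane subunits of complex I, the NADH dehydrogenase. MT-CYB encodes cytochrome b, the only subunit of complex III made in the organelle. MT-CO1, MT-CO2 and MT-CO3 encode the 3 core subunits of cytochrome c oxidase, complex IV, and MT-ATP6 and MT-ATP8 encode 2 subunits of the membrane part of ATP synthase, complex V.

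The layout of the genes bears on how reads can be assigned, and the places where neighbours touch are shown for that reason. The sequences are those of the GRCh38 reference, whose mitochondrial chromosome has 16569 bases, and not of these cell lines. MT-ATP8 (chrM:8366-8572) and MT-ATP6 (chrM:8527-9207) lie on 1 transcript and share 46 bases in different reading frames. In the lines below the capitals mark the MT-ATP6 start codon inside MT-ATP8 (chrM:8521-8547, plus strand) and the MT-ATP8 stop codon inside MT-ATP6 (chrM:8552-8578, plus strand).
MT-ATP6 start: accaaaATGaacgaaaatctgttcgct
MT-ATP8 stop: tcattgcccccacaatccTAGgcctac

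MT-ND4L (chrM:10470-10766) and MT-ND4 (chrM:10760-12137) are likewise joined and share 7 bases, in capitals in the next line (chrM:10751-10774, plus strand), which hold the start codon of the second gene and the stop codon of the first.
MT-ND4L into MT-ND4: cctactccaATGCTAAaactaatc

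MT-ND6 (chrM:14149-14673) is the only 1 of the 13 on the minus strand of the reference, the product of the light-strand promoter, while the other 12 lie on the plus strand and come from the heavy-strand promoter. It meets MT-ND5 (chrM:12337-14148) tail to tail with no base between them. The first line shows the junction on the plus strand (chrM:14137-14160), with the stop codon of MT-ND5 and the reverse complement of that of MT-ND6 in capitals, and the second shows the end of MT-ND6 as its own mRNA reads it (chrM:14140-14157, minus strand), with its AGG stop in capitals.
MT-ND5 into MT-ND6: ctaatcacaTAACCTattcccccg
MT-ND6 end: gggaatAGGttatgtgat

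Transcripts of both strands cover the MT-ND6 region, and whether the libraries kept the strand was not stated, so reads of MT-ND6 and of RNA antisense to it cannot be told apart in its values. For 6 genes (MT-ND1, MT-ND2, MT-ND3, MT-ND4, MT-CO3 and MT-CYB) the annotated length was not a multiple of 3. Their stop codon is not complete in the DNA and is finished by the poly(A) tail, as at the end of MT-CYB (chrM:15876-15893, plus strand), where the capital marks the last encoded base.
MT-CYB end: tcaaatgggccTgtcctt

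The remaining genes lie at chrM:3307-4262 (MT-ND1), chrM:4470-5511 (MT-ND2), chrM:5904-7445 (MT-CO1), chrM:7586-8269 (MT-CO2), chrM:9207-9990 (MT-CO3, sharing 1 base with MT-ATP6), chrM:10059-10404 (MT-ND3) and chrM:14747-15887 (MT-CYB). None has an intron.

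In unedited HAP1 cells the 13 mRNAs together made up 6.87% ± 1.32 (SD, n = 8) of the summed FPKM of all genes, and in unedited HCT116 cells 12.3% ± 3.49 (SD, n = 11). Averaged over all 47 libraries MT-ATP8 had the highest FPKM of all 57507 genes and MT-CO3 and MT-CO2 followed it. MT-ND6, the lowest of the 13, still ranked 326. FPKM corrects for the length of the gene, and this correction is least certain for genes as short as MT-ATP8 (207 bases) and MT-ND4L (297 bases). The levels and ranks of these genes against longer ones may therefore reflect the correction and not more RNA.

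The order of the levels was nearly the same in both lines. In unedited HAP1 MT-ATP8 (mean 8507 FPKM), MT-CO3 (6160 FPKM) and MT-CO2 (5114 FPKM) led, each above the next in 8 of 8 libraries. MT-ND4L, MT-ATP6, MT-CO1, MT-ND3 and MT-ND4 formed a middle group between 3255 and 4051 FPKM, in which no neighbours kept their order in 8 of 8 libraries. MT-ND2 (2231 FPKM), MT-CYB (1451 FPKM), MT-ND1 (1324 FPKM), MT-ND5 (754 FPKM) and MT-ND6 (289.6 FPKM) closed the order. MT-CYB exceeded MT-ND1 in 6 of 8 libraries, by 0.17 ± 0.29 (log2, SD), which is within the spread. In HCT116 MT-CO2 and MT-CO3 changed places, with MT-CO2 the higher in 8 of 11 libraries by 0.07 ± 0.15 (log2, SD), and MT-CYB lay above MT-ND1 in 11 of 11.

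**Figure D1:**
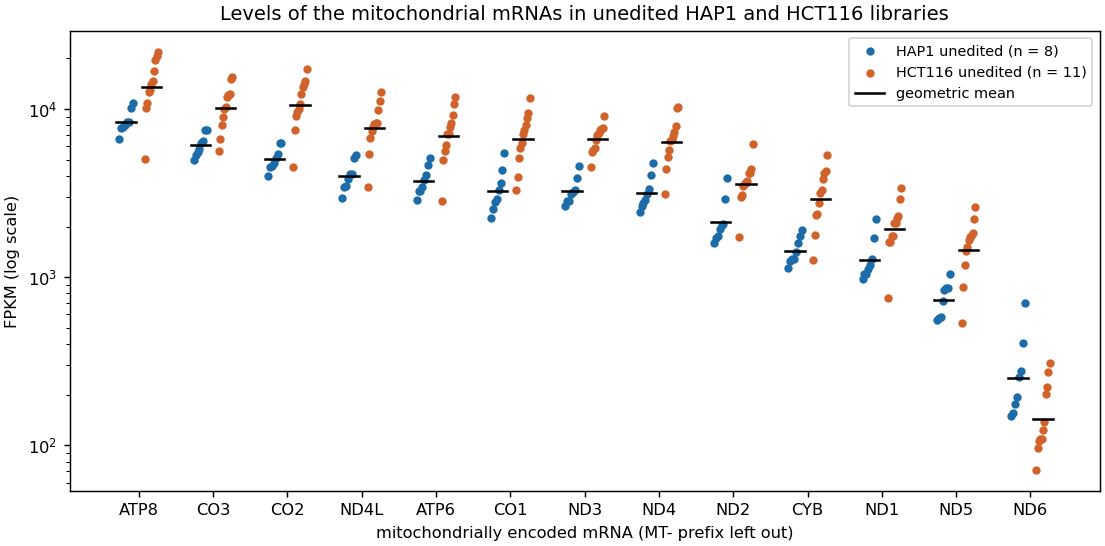
FPKM (log axis) of the 13 mRNAs in the 8 unedited HAP1 libraries (blue) and the 11 unedited HCT116 libraries (orange), with 1 point for each library and a bar at the geometric mean. For 12 mRNAs the HCT116 bar is the higher one, and for MT-ND6 the HAP1 bar is.

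The mRNAs joined on 1 transcript kept a steady ratio, as did some pairs that are not joined. The log2 difference of MT-ND4L and MT-ATP6 had an SD of 0.09 in unedited HAP1 and 0.10 in unedited HCT116. For MT-CO1 and MT-ND3, also not joined, the SD was 0.39 and 0.34. MT-ATP8 had 2.29 ± 0.14 times (SD) the FPKM of MT-ATP6 over the 32 HAP1 libraries and 2.00 ± 0.14 times over the 15 of HCT116, and MT-ND4L had 1.27 ± 0.07 and 1.21 ± 0.08 times the FPKM of MT-ND4. Reads in the shared bases are divided between the overlapping genes by the quantifier. The ratios depend on that division and on the length correction as well as on the RNA.

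Stretches of the mitochondrial genome are also found in nuclear DNA, where 386 rows of the table carried the names of mitochondrial pseudogenes. Only 36 of them had a mean above 0 and 3 a mean of at least 1 FPKM, all 3 in 1 stretch of chromosome 1. MTATP6P1 (chr1:633696-634376) had a mean of 722 FPKM, MTCO1P12 (chr1:631074-632616) 6.40 FPKM and MTND2P28 (chr1:629640-630683) 1.57 FPKM. MTATP6P1 differs from MT-ATP6 at 10 of 681 bases, and 2 of these are shown in capitals in the lines below, from chrM:8652-8681 and chr1:633821-633850 on the plus strands.
MT-ATP6: aatCaccacccaacaatgactaatcAaact
MTATP6P1: aatTaccacccaacaatgactaatcCaact

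MTATP6P1 stood at 13.998% to 17.7% of the FPKM of MT-ATP6 in the 47 libraries, whatever the level of MT-ATP6. Of the windows of 100 bases in a gene, the share also present letter for letter in the chromosome 1 stretch was 27.9% for MT-CO1, 26.1% for MT-ND2, 11.9% for MT-ATP6, 10.97% for MT-ND1, 4.67% for MT-CO3 and 2.39% for MT-CO2. It was 0 for the other 7 genes, so the values of 6 of the 13 may hold or lack reads shared with the copy, and those of MT-ND3, MT-ND4L, MT-ND4, MT-ND5, MT-ND6, MT-CYB and MT-ATP8 are free of that stretch at this length. The longest run without a mismatch between MT-ATP6 and MTATP6P1 was 141 bases, shorter than the read length the study states. Sharing was not computed at that length.

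**Figure D2:**
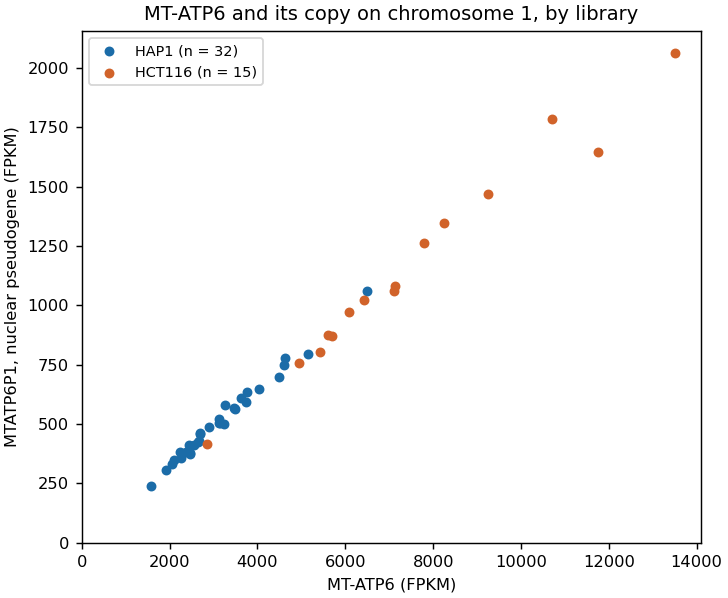
FPKM of MTATP6P1, a nuclear copy of MT-ATP6 on chromosome 1, against FPKM of MT-ATP6, with 1 point for each of the 32 HAP1 (blue) and 15 HCT116 (orange) libraries. The points lie near a line through the origin, at 13.998% to 17.7% of the MT-ATP6 value.

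Unedited HAP1 and HCT116 cells were compared first, by limma on log2(FPKM + 1) with Benjamini-Hochberg adjustment over the 13538 genes tested, a gene being called at an adjusted p below 0.05. All 13 mRNAs were called, where 68% of all genes were. The 12 mRNAs of the heavy-strand promoter were all lower in HAP1, a direction called in 28.5% of all genes. MT-ND6 was higher in HAP1, as were 39.5% of all genes. The median log2 difference of the 13 was -0.95, beside 0.10 over all genes tested. Under median-ratio scaling, which moves the median of all genes to -0.00026, the median of the 13 was -1.06 and MT-ND6 stayed higher at 0.69. Without the libraries numbered 3 the 12 heavy-strand mRNAs were still called lower, with a median over the 13 of -1.02, where 64.1% of all genes were called.

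Among complex IV mRNAs MT-CO2, which carries the copper site that takes electrons from cytochrome c, had 4016 FPKM in the lowest, 4925 in the median and 6297 in the highest unedited HAP1 library. In unedited HCT116 these values were 4541, 10786 and 17362 FPKM. The HAP1 libraries were all under the HCT116 mean, and 2 of 8 were under every HCT116 library, the lowest of which was EV2 replicate 2. The log2 difference was -1.07 ± 0.19 (SE; limma adjusted p = 3.65e-05), which is 2.10-fold lower in HAP1. MT-CO1, the catalytic subunit, differed by -1.01 ± 0.21 (limma adjusted p = 0.000237) and MT-CO3 by -0.73 ± 0.17 (limma adjusted p = 0.000586).

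In complex I MT-ND3, a small subunit of the membrane arm, separated the lines best. It ranged from 2649 FPKM (lowest) through 3157 (median) to 4595 (highest) in HAP1 and from 4538 through 6968 to 9053 FPKM in HCT116. Only WT replicate 3 of HAP1 reached the range of HCT116. The log2 difference was -1.03 ± 0.12 (SE; limma adjusted p = 1.86e-07), or 2.04-fold. MT-ND4 (-1.01 ± 0.19), MT-ND5 (-0.99 ± 0.23), MT-ND4L (-0.95 ± 0.19) and MT-ND2 (-0.75 ± 0.19), the subunits of the proton-pumping arm, followed with limma adjusted p between 6.98e-05 and 0.0014. MT-ND1, at the joint with the arm that holds the electron carriers, showed the smallest difference of the 12, -0.60 ± 0.21 (limma adjusted p = 0.0186), and its ranges of 970.3 to 2221 FPKM in HAP1 and 749 to 3374 FPKM in HCT116 overlapped widely.

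MT-CYB of complex III was 2.04-fold lower in HAP1 (log2 difference -1.03 ± 0.21, limma adjusted p = 0.000181). In complex V MT-ATP6 was 1.86-fold lower (-0.89 ± 0.20, limma adjusted p = 0.000534) and MT-ATP8 1.61-fold lower (-0.69 ± 0.21, limma adjusted p = 0.00563). None of the 13 mRNAs had groups that did not overlap, a separation reached downwards by 13.8% and upwards by 18.5% of all genes tested. An exact two-sided permutation test of each gene over the 75582 arrangements of the libraries gave p from 2.65e-05 to 0.0273.

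MT-ND6 went the other way. Its lowest, median and highest values were 149.8, 224 and 705 FPKM in unedited HAP1 and 71.5, 123 and 309 FPKM in unedited HCT116. The highest HAP1 values were those of WT and EV replicate 3. The log2 difference was 0.80 ± 0.30 (SE; limma adjusted p = 0.0232; exact permutation p = 0.0273), or 1.74-fold higher in HAP1. Without the libraries numbered 3 it was 0.49 ± 0.27 (limma adjusted p = 0.116), and a test with unequal variances and no moderation gave an adjusted p of 0.0508, so the call on MT-ND6 rests on these libraries.

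Set against the mean of the 12 heavy-strand mRNAs in the same library, MT-ND6 stood at 4.41% to 14.8% in unedited HAP1 (median 6.35%, n = 8) and at 0.970% to 4.24% in unedited HCT116 (median 2.56%, n = 11). These ranges did not overlap, and with edited lines included 31 of the 32 HAP1 libraries lay above all 15 of HCT116, the exception being C5 replicate 2 at 4.10%. As a ratio built from the genes themselves it is given without a test. Within HAP1 the ratio moved with the replicate number, and in 8 of 8 lines replicate 3 had the highest value (9.71% to 15.3%, beside 4.10% to 8.12% in replicate 2).

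**Figure D3:**
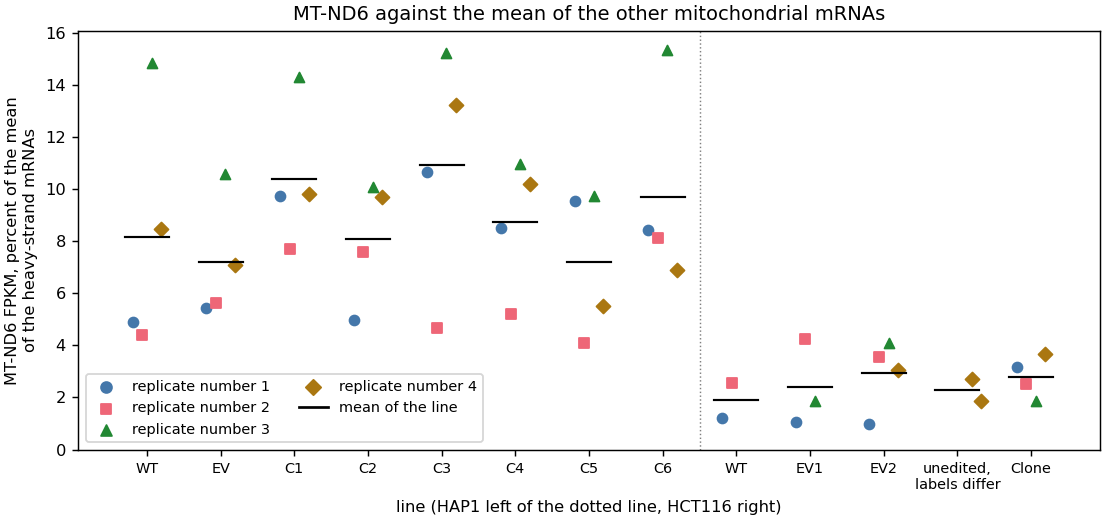
MT-ND6 FPKM as a percent of the mean FPKM of the 12 heavy-strand mRNAs in every library, by line, with colour and shape for the replicate number and a bar for the mean of the line. HAP1 libraries lie between 4.10% and 15.3% and HCT116 libraries between 0.970% and 4.24%, and green triangles (replicate 3) are the highest in each HAP1 line.

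The replicate number also went with the difference between the cell lines in the 12 heavy-strand mRNAs. Within replicate 1 the median log2 difference of the 12 was -1.49, within replicate 2 it was -0.22, within replicate 3 -0.60 and within replicate 4 -1.30. All 12 were lower in HAP1 within replicates 1, 3 and 4, and 11 within replicate 2. MT-ND6 was higher in HAP1 within each of the 4 numbers, by 0.35 to 1.62. MT-ND1 lost its call without replicate 1 (-0.47 ± 0.27, limma adjusted p = 0.144) and without replicate 4 (-0.39 ± 0.24, limma adjusted p = 0.168). Over the 4 fits that each left out 1 number, 11 to 13 of the 13 were called, so MT-ND1 was not the only mRNA to lose its call.

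The nuclear genes that serve these mRNAs moved in both directions, and their counts are to be read against the 39.5% of all genes called higher and the 28.5% called lower, with a median of 0.10. Of 37 nuclear subunits of complex I 20 were called higher and 5 lower in unedited HAP1 (median log2 difference 0.28), of 11 of complex IV 6 higher and 3 lower (0.24), of 18 of complex V 13 higher and 3 lower (0.29), and of 9 of complex III 4 higher and 3 lower (-0.04). NDUFB11 of complex I (1.36 ± 0.07, limma adjusted p = 5.04e-14) and COX5A of complex IV (1.44 ± 0.06, limma adjusted p = 3.55e-15) were among the largest, and COX5A had a mean of 541 FPKM in HAP1 and 199 FPKM in HCT116. Among 78 proteins of the mitochondrial ribosome 32 were higher and 14 lower (median 0.13), with MRPS11 (1.45 ± 0.12) and MRPL39 (1.39 ± 0.14) the most changed. The share called higher was near that of all genes, and the share called lower was under it. Without the libraries numbered 3, where 37.5% of all genes were higher and 26.6% lower, complex I had 23 higher and 5 lower, complex V 12 and 3, complex IV 6 and 2, complex III 4 and 2 (median 0.06) and the ribosome 27 and 13.

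Of 16 genes of mitochondrial transcription and replication 8 were higher and 4 lower. TFB1M, a methyltransferase of the small ribosomal RNA of the organelle, differed by -1.16 ± 0.14 and MTERF2, a member of the termination factor family, by 1.09 ± 0.11. Of 27 genes that process or stabilise mitochondrial RNA 13 were higher and 7 lower. In this list FASTKD2, an RNA-binding protein needed for the large ribosomal RNA of mitochondria, stood apart with 0.0233 to 0.326 FPKM in the 8 unedited HAP1 libraries and 12.6 to 31.9 FPKM in the 11 of HCT116. Its log2(FPKM + 1) difference was -4.21 ± 0.15 (SE; limma adjusted p = 1.60e-16), and the 24 edited HAP1 libraries were as low (0.0257 to 0.372 FPKM). HSD17B10, a subunit of the mitochondrial RNase P that cuts transfer RNAs out of the precursor, was higher in HAP1 (1.36 ± 0.10). The part of these genes in the levels of the 13 mRNAs was not tested.

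The next comparisons asked how the mRNAs stood in cells that survived with NUP58 alleles of reduced function. The 6 HAP1 clones were weighted equally and set against WT in 1 fit of the 32 libraries. In it 13 of 13 mRNAs had a lower mean, as did 53.2% of the 13180 genes tested. The 13 rose and fell together between libraries, so these are not 13 separate observations. Log2 differences ran from -0.82 for MT-ND5 to -0.21 for MT-ND6, with a median of -0.51, beside -0.02 over all genes tested. None was called by limma at an adjusted p below 0.05, where 6.6% of all genes were, and 9 of 13 were lower at an unadjusted p below 0.05, as were 11.2% of all genes.

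MT-ND5, which forms the far end of the proton-pumping arm, had 577, 864, 1042 and 721 FPKM in WT replicates 1 to 4 and 553, 569, 860.2 and 843 FPKM in those of EV. In the 24 clone libraries it ran from 212 FPKM (C4 replicate 1) through a median of 426 to 1122 FPKM (C6 replicate 4), and 19 of the 24 lay under the lowest WT library. The log2 difference was -0.82 ± 0.26 (SE; limma adjusted p = 0.0592), or 1.76-fold lower. MT-ND1 had 1122, 1045, 2221 and 1187 FPKM in WT, and 21 of 24 clone libraries lay under all 4, with a median of 881 FPKM. No mRNA had all 24 clone libraries under all of WT, as did 0.243% of the genes tested. The log2 difference of MT-ND1, -0.60 ± 0.19 (SE; limma adjusted p = 0.0601), was -0.35 ± 0.20 without WT replicate 3, which lay far above the other 3, and that of MT-ND5 was then -0.68 (limma adjusted p = 0.219).

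The numbers of the HAP1 libraries pair C1 to C4 and EV with WT, as same-numbered libraries deviated together (every correlation over 0.1), but not C5 and C6. The pairing was weak in C1, with r of 0.15 in replicates 1 and 3. In C2, replicates 1 and 4 (own r 0.24 and 0.43) correlated better with a WT library of another number. With the replicate number as a block, 4 mRNAs of complex I were lower in the clones, where 12.6% of all genes were called in either direction. They were MT-ND5 (limma adjusted p = 0.00302), MT-ND1 (0.0169), MT-ND4 (0.0349) and MT-ND4L (0.0417), with the differences as above for the first 2, -0.63 ± 0.20 for MT-ND4 and -0.58 ± 0.19 for MT-ND4L. Against WT of the same number the median of the 13 was lower in 21 of 24 clone libraries and MT-ND5 in 22 of 24. In EV the median was lower in 3 of 4 libraries and MT-ND5 in 3 of 4. The clone counts include C5 and C6 and reuse the same WT libraries, and the share over all genes was not computed. EV, which carries no NUP58 mutation, also had a lower mean than WT in 13 of 13 mRNAs, as did 49.9% of all genes. The median log2 difference of the 13 in EV was -0.20 and none was called (0.038% of all genes were). Among those few genes EV was lower than WT in the markers TAL1 (-3.07 ± 0.15, limma adjusted p = 4.31e-05) and PDGFRA (-2.12 ± 0.20, limma adjusted p = 0.00366), and their part in the levels of the 13 mRNAs was not tested. With EV in place of WT the median difference of the clones was -0.28, and that of MT-ND6 was 0.06. With WT and EV together as the reference 3 of 13 were called, beside 17.5% of all genes, and with the block as well 9 were, beside 27.1%. With EV alone and the block 2 were, beside 16.7%.

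**Figure D4:**
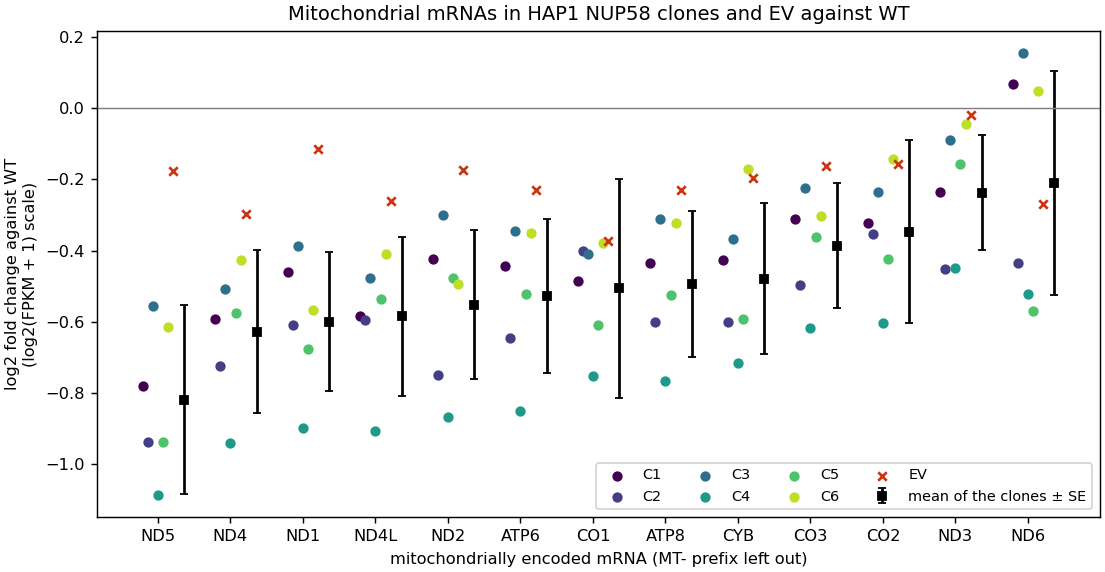
Log2 fold change against WT of the 13 mRNAs in each HAP1 clone (coloured dots) and in EV (red crosses), with the mean of the 6 clones and its SE as black squares, ordered by that mean. Mean differences run from -0.82 (MT-ND5) to -0.21 (MT-ND6), and every comparison uses the same 4 WT libraries. EV lies under 0 for all 13, as it does for 49.9% of all genes.

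Clone by clone, the same 4 WT libraries were the reference, so the comparisons are not independent of each other. C4 was the clone with the lowest levels, while its NUP58 (mean 25.5 FPKM) was the highest of the clones. The other clones had NUP58 means of 9.80 to 15.6 FPKM, and WT had 41.3 FPKM. In C4 MT-ND5 had 212, 454, 397 and 481 FPKM and MT-ND1 497, 688, 871 and 857 FPKM. All 4 values of each were under every WT value, and 9 of the 13 mRNAs were separated from WT in this way, as were 2.9% of all genes downwards. The exact permutation p of these 9 was 0.0286, the smallest that 4 against 4 libraries allow. The median log2 difference of the 13 was -0.77 in C4, from -0.45 for MT-ND3 to -1.08 ± 0.27 (SE) for MT-ND5. None was called without the block (0.16% of all genes were), MT-ND5 having a limma adjusted p of 0.251. With the replicate block 10 of 13 were lower, where 2.43% of all genes were called, with limma adjusted p from 0.0113 (MT-ND4) to 0.0492 (MT-ATP8), and MT-CO2, MT-ND3 and MT-ND6 were the 3 not called. Under a rule of an unadjusted p below 0.01 and a change over 2-fold 1 of 13 passed, beside 0.686% of all genes.

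C2 came next, with a median difference of -0.60 and 8 of 13 mRNAs under every WT value, as were 4.99% of all genes. Its MT-ND5 values were 345, 340.1, 422 and 561 FPKM, all below the lowest WT value of 577. The log2 difference of -0.94 ± 0.21 (SE) had a limma adjusted p of 0.080 without the block, where 0.732% of all genes were called, and 0.0457 with it, where 1.23% were. No other of the 13 was called in C2.

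In C5 MT-ND5 was the 1 mRNA called without a block, at 313, 577, 430.1 and 356 FPKM (-0.94 ± 0.22, limma adjusted p = 0.0291), in a comparison that called 7.55% of all genes. The second of these values, to more digits 576.9 FPKM, lay just above the lowest WT value of 576.7. C5 replicate 2 had the highest levels of the clone in every mRNA but MT-ND6. Without C5 replicate 2, 8 mRNAs were lower, beside 7% of all genes, while without any 1 of C5 replicates 1, 3 and 4 or of WT replicates 3 and 4 none was. With the block 7 of 13 were called, beside 16.3% of all genes, and under the rule of p below 0.01 and over 2-fold none passed, beside 2.31%. C1 (median -0.44), C3 (-0.35) and C6 (-0.35) had no call, where 0.479%, 0.0911% and 11.7% of all genes were called, and in each of them MT-ND6 was the 1 mRNA with a mean above WT, by 0.07, 0.15 and 0.05. The median of C3 was -0.22 without C3 replicate 1 or without WT replicate 3, and that of C6 was -0.09 without C6 replicate 1, -0.18 without replicate 3 and -0.69 without replicate 4. In C6 the libraries ranged from 3.74% to 11.6% of the summed FPKM, the widest of any HAP1 line.

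No mRNA differed among the 8 HAP1 lines by a limma F test at an adjusted p below 0.05, where 21.5% of all genes did, and 2 of 13 did at an unadjusted p below 0.05, beside 32.7%. With the replicate block MT-ND5 (limma adjusted p = 0.00443) and MT-ND1 (0.0243) differed, beside 34.9% of all genes.

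Over the mean of the 6 clones the nuclear partners of these mRNAs were close to the median of all genes. Of 18 subunits of complex V, 11 of complex IV and 9 of complex III none was called (median log2 differences 0.08, 0.05 and -0.02), and of 37 of complex I only NDUFB8 was (0.30 ± 0.07, limma adjusted p = 0.00429). Of 78 ribosomal proteins MRPL24 was higher (0.41 ± 0.08) and MRPS31 (-0.39 ± 0.08) and MRPL58 (-0.29 ± 0.07) were lower. MGME1, a nuclease of mitochondrial DNA maintenance, had 18.1 to 25.4 FPKM in WT and 22.5 to 36.9 FPKM in the clones (0.36 ± 0.08, limma adjusted p = 0.00353) and was the 1 gene called of 16 for transcription and replication. None of 26 tested for RNA processing was called. None of 13 mitochondrial translation factors (median -0.02) and none of 8 regulators of mitochondrial biogenesis (median 0.14) was called. C6 taken alone stood further off, with 4 of 18 subunits of complex V higher (median 0.21), 5 of 37 of complex I (0.14) and 1 of 11 of complex IV (0.25), none lower, beside a median of 0.02 over all genes and 11.7% called in either direction. Among marker lists, KRT8 (-1.29) and KRT18 (-0.67) of 5 tested epithelial genes were lower in the clones. PDGFRA (1.18) of 2 tested fibroblast genes was higher. Of 7 noncoding RNAs (MALAT1, NEAT1, RN7SK, RPPH1, RMRP, RN7SL1 and RN7SL2) 0 were called, with a median of 0.38. The part of these genes in the levels of the 13 mRNAs was not tested.

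**Figure D5:**
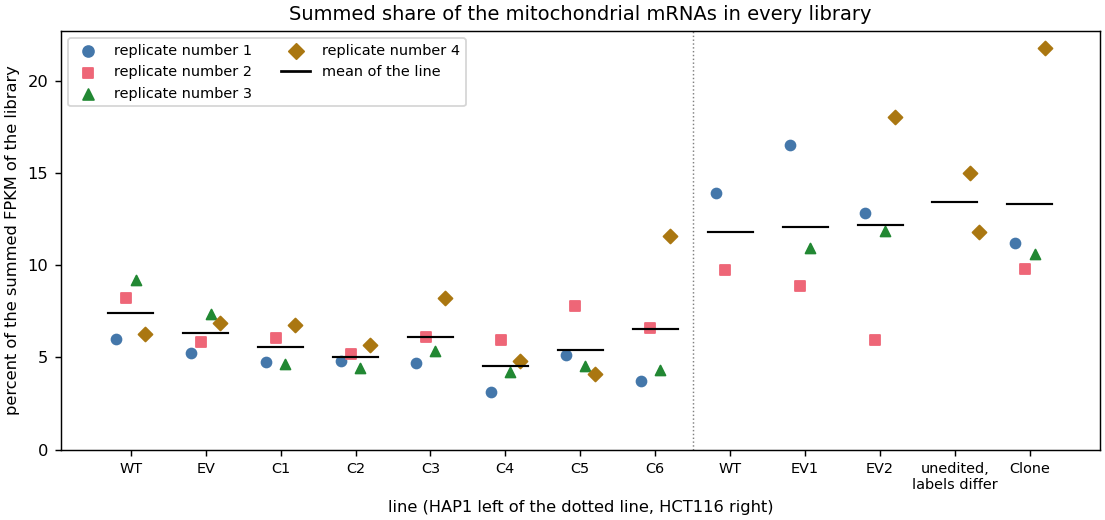
Summed FPKM of the 13 mRNAs as a percent of the summed FPKM of all genes in each of the 47 libraries, by line, with colour and shape for the replicate number and a bar for the mean of the line. HAP1 libraries lie between 3.12% (C4 replicate 1) and 11.6% (C6 replicate 4), and HCT116 libraries between 5.95% (EV2 replicate 2) and 21.8% (Clone replicate 4).

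In HCT116 the libraries labelled Clone did not separate from the 11 unedited ones. The 13 mRNAs summed to 11.2%, 9.81%, 10.6% and 21.8% of the FPKM in Clone replicates 1 to 4, and 3 of these lay within a narrow band below the mean of the unedited libraries. Log2 differences ran from -0.06 (MT-ND1) to 0.39 ± 0.38 (MT-ND6), with a median of 0.08 beside 0.00 for all genes. The direction of that median rested on single libraries, as it was -0.19 without Clone replicate 4, -0.000345 without EV2 replicate 2 and 0.21 without Clone replicate 2. Limma called none of the 13 and none (0%) of the 12960 genes tested. None of the 13 had an unadjusted p below 0.05, beside 10.4% of all genes. With unequal variances and no moderation 17 genes (0.131%) and none of the 13 were called. Without the libraries numbered 3 none was called either, where 5.92% of all genes were, and MT-ND6 stood at 0.72 ± 0.41 (SE; limma adjusted p = 0.307). Compared within a replicate number, the median difference of the 13 was -0.45, 0.30 and 0.66 for numbers 1, 2 and 4. For number 3 it was -0.15, a value that holds both libraries whose NUP58 went against their labels.

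A direct test of whether the clones differ from their controls by the same amount in both lines, chosen after seeing the data, called none of the 13 among 13629 genes, of which 1.8% were called. The largest difference between the lines was that of MT-ND5, -1.01 ± 0.43 (log2, HAP1 effect minus HCT116 effect, SE; limma adjusted p = 0.253), and 1 of 13 had an unadjusted p below 0.05. Without the libraries numbered 3 none of the 13 was called, where 4.12% of all genes were, none had an unadjusted p below 0.05, and MT-ND5 stood at -0.92 ± 0.56.

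The 13 mRNAs varied more between libraries of 1 line than most genes did. Their residual SD within HAP1 lines ran from 0.31 (MT-ND3) to 0.62 (MT-ND6) on the log2 scale, with a median of 0.43, beside 0.25 over the 13180 genes tested and 0.16 over the 153 nuclear genes with a mean of at least 500 FPKM. In HCT116 it ran from 0.28 (MT-ND3) to 0.74 (MT-ND6), beside 0.27 over all genes. Within HAP1 lines the mRNAs rose and fell together. Over 32 libraries, which share the library and its depth, the correlation of a pair of mRNAs had a median of 0.83 and a maximum of 0.98, and the lowest was 0.22, between MT-CO1 and MT-ND6. Each of the 12 heavy-strand mRNAs correlated with the mean of the other 12 of the set at 0.80 to 0.97, and MT-ND6 at 0.52.

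Part of this variation went with the replicate number. In HAP1 every library numbered 1 lay under the mean of its line (8 of 8, by 0.33 log2 units on average over the 13), and in HCT116 every library numbered 2 lay under the mean of its group, Clone or unedited (4 of 4, by 0.54). The replicate number took up between 26.6% (MT-ND2) and 57.7% (MT-ND5) of the sum of squares within HAP1 lines, with 51.8% for MT-ND6. The makeup shifted as well. The 3 complex IV mRNAs held 33.9% to 42.3% of the summed FPKM of the 13 in HAP1 libraries numbered 2 (median 38.8%), and a median of 32.9% to 33.7% in those of the other numbers.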

How the data were processed

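Bulk RNA-seq libraries (Illumina TrueSeq HT kit) of total RNA were aligned by the authors with STAR to Ensembl GRCh38 and quantified with RSEM, and the deposited table holds FPKM per gene and library without further normalization. Strandedness and aligner versions were not given in the sources used here. Levels and shares were computed from FPKM as deposited. Comparisons used limma 3.58.1 in R 4.3.3 (lmFit, eBayes with trend) on log2(FPKM + 1) for genes with a mean of at least 1 FPKM, adjusted by Benjamini-Hochberg over all genes, so a fold change understates that of low genes. Exact permutation tests ran over libraries. No count test was run. Alternatives were other scalings, filters, pseudocounts, references, the replicate block and leaving out libraries. Named genes were all 13, and in each nuclear list up to 3 called genes with the largest change. The members and lists were chosen with earlier results of these data known. In data simulated for the comparison of the 6 clones with WT, 183 of 200 genes changed 2-fold were recovered among 13314, with 5 false calls. For single clones against WT the number recovered ran from 135 of 200 (C2, 4 false calls) to 161 (C4, 11 false calls). The changed genes were drawn at random and the noise was independent between genes. Shifts shared by the 13 mRNAs were not simulated, so the power for them is not known. Same-numbered HAP1 libraries paired with WT (every correlation of deviations from the group means over 0.1, lowest 0.15) for C1 to C4 and EV. Reference sequences came from GRCh38 with GENCODE coordinates.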

Additional observations from a re-analysis of the deposited data

Results flagged for a closer look

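In each line with 4 libraries, the highest and lowest value of every mRNA, of their summed share, of the MT-ND6 ratio and of the MTATP6P1 ratio was compared with the nearest other library by Dixon's criterion, over 160 sets of values, and 18 stood apart. For independent sets of normally distributed values chance marks about 1 in 20. These values were not logged and the mRNAs rose and fell together, so the count of 18 cannot be set against that rate. All 18 were high values.

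Of these, 10 were in the library labelled Clone replicate 4 of HCT116, counting its summed share of 21.8%, beside 9.81% to 11.2% in the other 3. Its MT-ATP8 (30780.0 FPKM), MT-CO2 (21120.0), MT-CO3 (16950.0), MT-ND4L (16340.0), MT-ATP6 (13510.0), MT-ND4 (12400.0), MT-CO1 (12290.0), MT-ND3 (9377) and MT-CYB (6206 FPKM) were each far above the other 3 Clone libraries, which for MT-ATP8 had 10940.0 to 13420.0 FPKM and for MT-ND3 6054 to 6551 FPKM.

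WT replicate 3 of HAP1, a reference library of the clone comparisons, stood apart in MT-ND1 (2221 FPKM), MT-ND2 (3871 FPKM) and MT-ND3 (4595 FPKM). C5 replicate 2 did in MT-CO1 (4748 FPKM) and MT-CO2 (7364 FPKM), mRNAs of complex IV. C1 replicate 4 did in MT-ND1 (1192 FPKM), C2 replicate 4 in MT-ND2 (1920.0 FPKM) and C6 replicate 4 in MT-ND3 (4639 FPKM).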

How the results depend on the processing

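The calls in the HAP1 clones depended on the fit. With the replicate block the number of the 13 mRNAs called went from 0 to 10 in C4, from 0 to 1 in C2, from 1 to 7 in C5 (whose numbers do not pair it with WT), from 0 to 4 for the mean of the 6 clones and from 0 to 2 among the 8 lines, and the block changed no other count. For the mean of the clones it was 3 with WT and EV as reference, and, in fits chosen after seeing the data, 9 with that reference and the block and 2 with EV and the block. The 1 call in C5 was lost (0) with no filter, with unequal variances, with 1 fit of all HAP1 libraries and under a rule of p under 0.01 and a fold over 2, which gave 1 in C4. Leaving out a library or a clone gave 0 to 8 in C5, 0 to 3 for the mean of the clones (2 without C3, 3 without C6), 11 to 13 for HAP1 against HCT116, and 0 in all other comparisons. The difference of MT-ND6 between the clones and WT, -0.21, turned to 0.059 with EV as reference, with or without the block, and ranged from -0.49 to 0.24 when 1 WT library was left out (0.24 without WT replicate 3). TPM, median-ratio scaling, totals without the mitochondrial genes, a pseudocount of 0.1 and a flat variance prior changed no count. The share of the 13 mRNAs alone is the main value, as all members are mRNAs. FPKM are relative, so a share rises also where other RNA falls, and depth per value is unknown.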
